A study of Mus musculus with 16 samples.

Results

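Voltage-gated calcium channels open when a membrane depolarises, and the alpha subunit of each channel forms the pore and the voltage sensor. Probes of the 8 alpha subunit genes Cacna1a, Cacna1b, Cacna1c, Cacna1d, Cacna1e, Cacna1g, Cacna1h and Cacna1i were followed in cultured mouse cortical neurons and astrocytes. They were found by matching the transcript accession of each array probe to these genes, which gave 14 probes for 8 genes among 28331 probes with a gene symbol for 21368 genes. No measured value entered that matching, but the genes were chosen with earlier results of these data known. Of the 14 probes, 11 were called different between astrocytes and neurons, against 69.6% of all probes tested. None was called between Klotho and control cultures in either cell type, against 0.12% of all probes in neurons and 0% in astrocytes. Between the slide rows in which the astrocyte arrays lay, 8 could be tested and 6 were called, against 46.8% of all probes.

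The study hybridised 16 one-colour arrays, 4 for each of 4 groups of primary C57BL/6 cortical cultures. Neurons came from cortex at embryonic day 16 and were treated at 14 days in vitro. Astrocytes came from pups of postnatal day 0 to 5 and were purified by shaking for 15 h to a stated purity above 98%, although their sample labels also carry embryonic day 16. Each culture received the anti-ageing hormone Klotho as recombinant secreted protein at 1 nM, or phosphate-buffered saline as the control, for 24 h. Each cell type thus has a control and a Klotho group of n = 4 arrays. The labels name no separate animals or cultures behind the 4 samples of a group, and the p-values cover only the variation among those samples, part or all of which may be technical.

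Alpha subunits fall into 3 families with different roles. The L-type channels hold Cacna1c (CaV1.2) and Cacna1d (CaV1.3), which couple long depolarisations to calcium signals that reach the nucleus, and Cacna1d channels open at lower voltage. The presynaptic and dendritic family holds Cacna1a (P/Q-type), Cacna1b (N-type) and Cacna1e (R-type), and P/Q- and N-type channels trigger transmitter release at most central synapses. The T-type channels Cacna1g, Cacna1h and Cacna1i open near the resting potential and shape burst firing in neurons.

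All neuron arrays lay on 1 slide, where row 1 held the controls and row 2 the Klotho arrays, so treatment and row cannot be told apart there. Astrocyte arrays lay on 2 other slides scanned on another occasion, so cell type, slide and scan cannot be told apart. The scanner files and the deposited value table disagree on which astrocyte array is which: 6 of 16 columns of that table equal the array of another astrocyte sample, and 4 of those 6 belong to the other treatment. Astrocyte treatment is therefore given by scanner file and by value table. The comparison of rows and the size of the differences between cell types do not depend on the choice. The SE, p-values and background filter of the cell type comparison used the scanner file groups. Fits among control arrays alone also took the controls by scanner file. By scanner file all control arrays lay on slide 2 and all Klotho arrays on slide 3, so treatment and slide cannot be told apart, and by value table controls lay in slide column 3 and Klotho in column 4, so treatment and column cannot be told apart. The cell type labels were checked on marker genes. All 10 neuron markers were well above background on every neuron array, with a mean log2 level of 4.64 to 5.10. On astrocyte arrays their mean was -1.95 to -1.44. By scanner file, 7 of the 10 were above background on every astrocyte control array and 8 on every astrocyte Klotho array. Nefl and Slc17a7 were above it on no astrocyte array. Of the 10 neuron markers, 9 were called lower in astrocytes and 1 was not called. Snap25 averaged 5.07 in astrocytes and 5.18 in neurons. All 10 astrocyte markers were above background on every astrocyte array, with a mean log2 level of 3.20 to 4.07 against 1.00 to 1.78 in neurons. Microglial markers were detected in both kinds of culture. All 8 were above background on every astrocyte array, with a mean log2 level of 2.89 to 3.76. In neurons all 8 were above background on every control array and 6 on every Klotho array, with a mean of -2.75 to -0.97. Of these 8 markers, 7 were called higher in astrocytes and 1 was not called. Of the other marker lists, all 7 interneuron genes were called lower in astrocytes (median -7.02). Among fibroblast, mural and endothelial genes 5 of 8 were called higher in astrocytes and 2 lower (median 2.40). Among oligodendrocyte lineage genes 8 of 10 were called lower and 1 higher (median -1.91). Among neural progenitor genes 4 of 5 were called higher and 1 lower. Shares over all probes tested were 28.8% called higher in astrocytes and 40.8% lower. Of the 10 astrocyte markers 8 were called higher in astrocytes and 1, Slc1a2, lower. The part of these lists in the levels of the alpha subunits was not tested.

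Promoter sequences show how differently the genes begin. RefSeq entries of build GRCm38.p6 were matched for 5 of the 8 genes at 8 transcript starts, each covering 250 bases before and 50 after the start. The 3 printed here belong to a gene with a large difference between the cell types measured on all arrays (Cacna1i), to a gene below background in all astrocyte arrays (Cacna1b) and to one called different at neither probe (Cacna1d). Capitals mark matches on either strand to the GC box GGGCGG and to the core TGACG of the cyclic AMP response element.
Cacna1i, chr15:80286988-80287287, plus strand: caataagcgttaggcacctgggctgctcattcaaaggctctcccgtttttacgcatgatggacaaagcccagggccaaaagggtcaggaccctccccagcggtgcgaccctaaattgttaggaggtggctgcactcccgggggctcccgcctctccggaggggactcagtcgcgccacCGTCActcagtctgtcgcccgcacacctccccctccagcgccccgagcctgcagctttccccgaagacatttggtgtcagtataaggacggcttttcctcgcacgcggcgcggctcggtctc
Cacna1b, chr2:24763103-24763402, minus strand: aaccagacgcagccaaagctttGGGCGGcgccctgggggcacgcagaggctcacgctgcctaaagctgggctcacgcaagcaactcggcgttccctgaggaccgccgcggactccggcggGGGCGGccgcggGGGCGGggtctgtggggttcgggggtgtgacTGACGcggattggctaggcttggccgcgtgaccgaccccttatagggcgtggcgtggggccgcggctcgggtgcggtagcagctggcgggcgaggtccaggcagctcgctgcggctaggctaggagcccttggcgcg
Cacna1d, downstream start, chr14:30353437-30353736, minus strand: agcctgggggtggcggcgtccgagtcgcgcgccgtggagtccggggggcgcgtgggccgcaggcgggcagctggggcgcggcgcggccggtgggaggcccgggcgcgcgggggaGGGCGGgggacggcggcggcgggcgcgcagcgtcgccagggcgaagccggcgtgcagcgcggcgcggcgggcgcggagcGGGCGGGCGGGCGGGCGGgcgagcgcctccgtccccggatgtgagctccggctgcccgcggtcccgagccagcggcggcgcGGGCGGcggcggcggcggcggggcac

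The downstream Cacna1d window holds 63 CpG dinucleotides and 6 GC boxes, the Cacna1b window 35 CpG and 3 GC boxes, and the Cacna1i window 23 CpG and no GC box. The median over 32851 RefSeq promoters of this length is 7 CpG, 35.7% of them hold GGGCGG and 20.8% hold TGACG. A second start of Cacna1d has 4 CpG and 3 matches to TATAAA, a motif found in 13.6% of all promoters, and 1 of 3 starts of Cacna1c has 57 CpG and 6 GC boxes. None of the 8 windows held the E box CACGTG, the full response element TGACGTCA or the left part of the repressor element of REST, TTCAGCACC. These matches describe the letters of the windows, and the arrays did not measure binding or start site use.

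**Figure D1:**
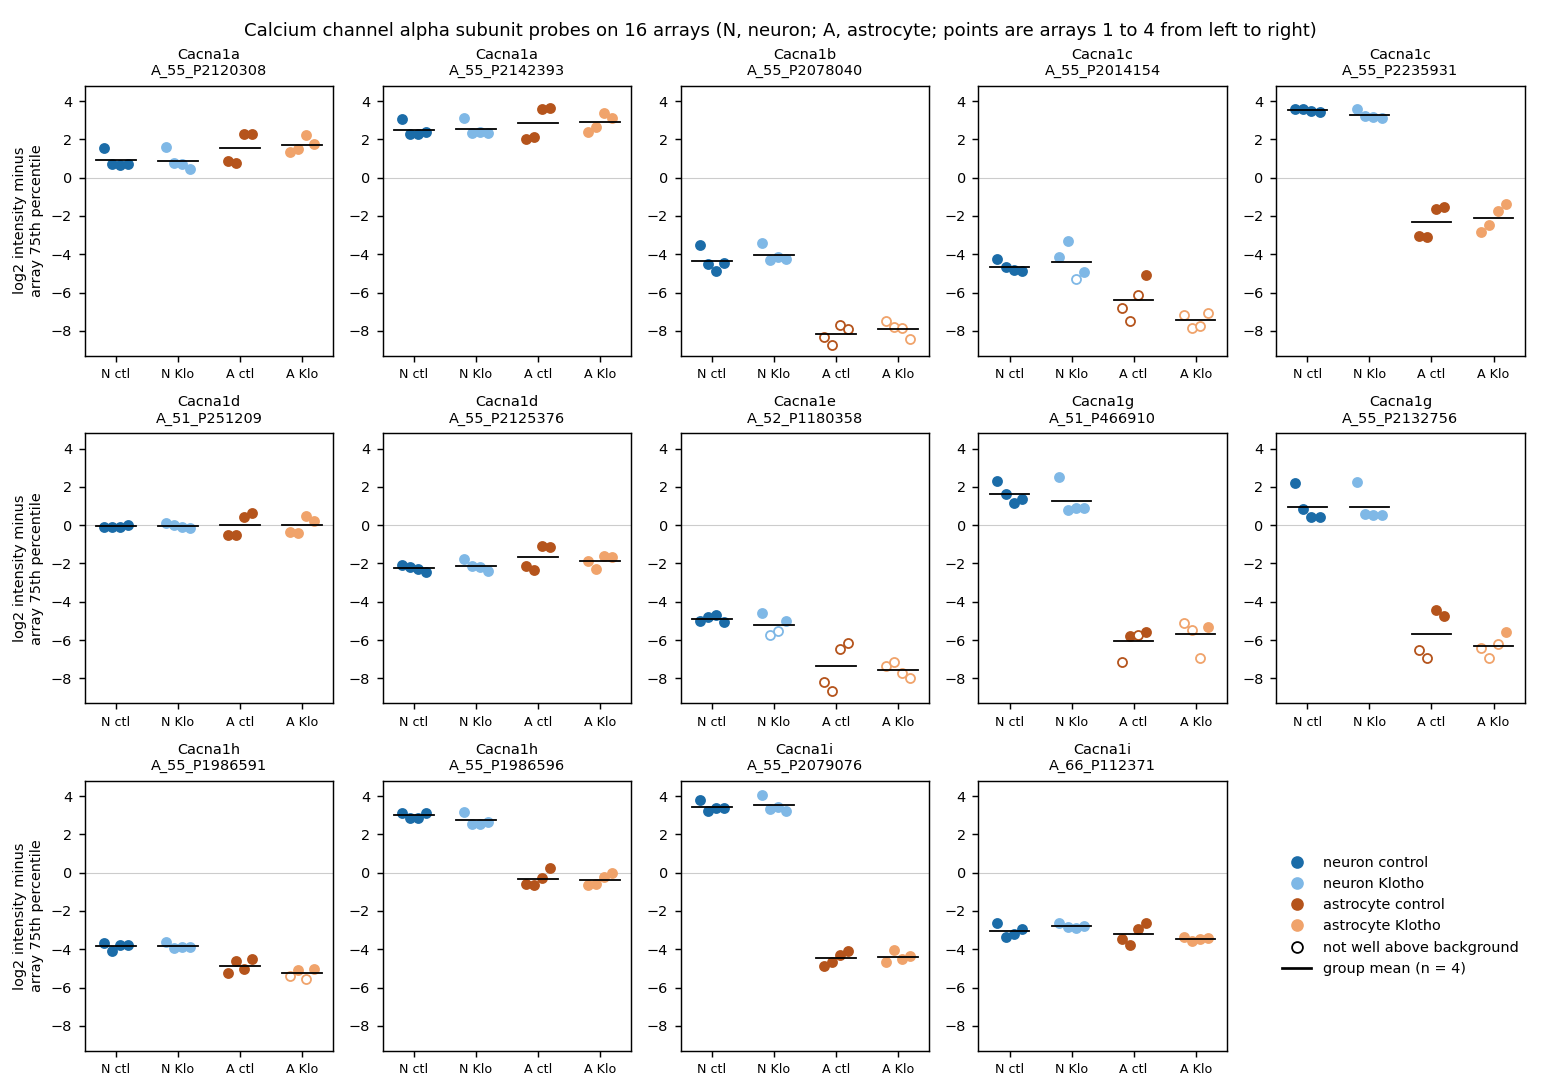
Level of each of the 14 alpha subunit probes on each of the 16 arrays, as log2 intensity minus the array's 75th percentile, by group. Filled points are well above background, open points are not, and black lines are group means (n = 4). Both probes of Cacna1g and Cacna1h, Cacna1b, Cacna1e and 1 probe each of Cacna1c and Cacna1i lie lower in astrocytes without overlap, whereas both Cacna1d probes overlap.

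Levels are log2 processed intensity minus the array's 75th percentile, so 0 is that percentile, and levels of different probes are not compared. Astrocytes were set against neurons with limma over all 16 arrays, in the 36235 probes that passed the background flag throughout at least 1 of the groups, and a call is an adjusted p under 0.05 after Benjamini-Hochberg. Of the 14 probes, 10 were called lower in astrocytes, 1 higher and 3 were not called. Over all probes tested, 40.8% were called lower and 28.8% higher, 69.6% in all. The median difference was -2.39 for the 14 probes and -0.22 for all probes, but 6 of the 14 were not above background on every array, and 5 of those, above it on 3 or fewer of the 8 astrocyte arrays, passed the filter through neurons alone. Of the 8 probes above background on all 16 arrays, 4 were called lower and 1 higher, and their median was -0.19, as it was for the 26815 probes under this filter, of which 40.0% were called lower and 27.4% higher. The ranges of the 8 neuron and 8 astrocyte arrays did not overlap for 8 of the 14 probes, against 42.6% of all probes. In cultures measured in bulk, fewer cells of a type and less RNA per cell cannot be told apart.

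Among the L-type genes, Cacna1c was much lower in astrocytes. Its brighter probe A_55_P2235931 read from 3.12 to 3.59 on neuron arrays, with a median log2 level of 3.45, and from -3.08 to -1.38 on astrocyte arrays, with a median of -2.11. Every astrocyte array lay below every neuron array, and the log2 difference was -5.60 ± 0.26 (SE, n = 8 and 8), a 48.6-fold lower signal (limma, adjusted p = 2.07e-11). The second Cacna1c probe, A_55_P2014154, was above background on 7 of 8 neuron arrays and 1 of 8 astrocyte arrays. Its difference was -2.38 ± 0.33 (limma, adjusted p = 1.06e-05), and with another background correction, normexp on spot medians, -0.76. Its astrocyte side lay mostly at background, so a bound was taken. Per astrocyte array it was the higher of the array's dimmest signal well above background and the probe's own. This bound put its processed signal in neurons at least 2.49-fold higher. The normexp difference was smaller than the bound, which therefore holds for the processed signal only.

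Cacna1d was not called different at either probe. Probe A_51_P251209 read from -0.14 to 0.12 in neurons (median -0.09) and from -0.52 to 0.62 in astrocytes (median -0.06). The astrocyte range enclosed the neuron range, and the log2 difference was 0.04 ± 0.19, with a 95% interval from -0.37 to 0.45 (limma, adjusted p = 0.857); its sign turned when astrocyte control 3 or 4 or astrocyte Klotho 3 or 4 was left out, to -0.06 at the lowest. For probe A_55_P2125376 the difference was 0.41 ± 0.20 (limma, adjusted p = 0.0790), with an interval from -0.01 to 0.83. That probe was called higher in astrocytes without astrocyte control 1 (0.48, adjusted p = 0.0425), astrocyte control 2 (0.52, adjusted p = 0.0194) or astrocyte Klotho 2 (0.48, adjusted p = 0.0471), and its difference was 0.21 with normexp. With the array row as a block the same difference had an adjusted p of 0.00851 and was called, as it was with scaling on the array median (0.46, adjusted p = 0.0148) or quantiles (0.39, adjusted p = 0.0436).

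The 3 genes of the presynaptic family are taken in turn. Cacna1a, the P/Q-type pore, was called higher in astrocytes at 1 probe and not called at the other. Its probe A_55_P2142393 had a median log2 level of 2.35 in neurons (2.28 to 3.13) and 2.87 in astrocytes (2.02 to 3.61), and the difference of 0.34 ± 0.27, with an interval from -0.22 to 0.91, was not called (limma, adjusted p = 0.263). Its other probe, A_55_P2120308, ran from 0.46 to 1.60 in neurons (median 0.72) and from 0.75 to 2.26 in astrocytes (median 1.64). The ranges of the 2 cell types overlapped at both probes. The second probe was called higher in astrocytes by 0.73 ± 0.27, or 1.66-fold (limma, adjusted p = 0.0231), but not without astrocyte control 4 (0.61, adjusted p = 0.0502), without astrocyte Klotho 3 (0.65, adjusted p = 0.0502) or among control arrays alone (0.63, adjusted p = 0.236).

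Cacna1b, the N-type pore, was above background on all 8 neuron arrays and on none of the 8 astrocyte arrays. Neuron levels at probe A_55_P2078040 ran from -4.88 to -3.42 with a median of -4.27. The bound used above put its processed signal at least 3.70-fold higher in neurons (fitted difference -3.85 ± 0.23, limma, adjusted p = 3.76e-10). Cacna1e, the R-type pore, was above background on 6 of 8 neuron arrays and on none of the astrocyte arrays, and its probe A_52_P1180358 ran from -5.74 to -4.61 in neurons (median -5.01). The same bound gave a processed signal at least 1.90-fold higher in neurons (fitted difference -2.39 ± 0.33, limma, adjusted p = 7.62e-06). With normexp, which here adds an offset to every spot, the fitted differences were -0.96 for Cacna1b and -0.59 for Cacna1e, both called lower but smaller than these bounds, which therefore hold for the processed signal only.

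All 3 T-type genes were called lower in astrocytes at both of their probes. Cacna1g stood between 0.79 and 2.52 in neurons (median 1.25) at probe A_51_P466910 and between 0.42 and 2.27 (median 0.54) at probe A_55_P2132756. In astrocytes each probe was above background on only 3 of 8 arrays, with medians of -5.66 and -6.33. No astrocyte array reached a neuron array at either probe, and the differences of -7.33 ± 0.34 and -6.95 ± 0.42 were both called, although most astrocyte values lay at background (limma, adjusted p = 1.73e-11 and 4.59e-10). The same bound put the processed neuron signals at least 128.9-fold and at least 94.9-fold higher.

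Cacna1h was measured on all arrays at probe A_55_P1986596, from 2.56 to 3.15 in neurons (median 2.88) and from -0.66 to 0.25 in astrocytes (median -0.43). The gap between the cell types was several times the spread within them, and the difference was -3.21 ± 0.16, or 9.27-fold lower (limma, adjusted p = 4.79e-11). Its dimmer probe A_55_P1986591, above background on 6 of 8 astrocyte arrays, gave -1.22 ± 0.14 (limma, adjusted p = 9.94e-07), and -0.67 with normexp.

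The 2 probes of Cacna1i, both above background on all 16 arrays, gave very different results. Probe A_55_P2079076 read from 3.20 to 4.07 in neurons (median 3.39) and from -4.87 to -4.01 in astrocytes (median -4.43). No array of 1 cell type came near the other, and the difference was -7.91 ± 0.17, a 240.2-fold lower signal (limma, adjusted p = 4.08e-15). Probe A_66_P112371 ran from -3.37 to -2.61 in neurons (median -2.86) and from -3.77 to -2.62 in astrocytes (median -3.44), so its ranges overlapped. It was called lower by only -0.42 ± 0.17 (limma, adjusted p = 0.0342), and not called when any 1 of 8 arrays was left out (neuron control 1 or 4, neuron Klotho 1 or 4, astrocyte control 1 or 2, astrocyte Klotho 2 or 3), where differences lay between -0.42 and -0.32 with adjusted p from 0.0517 to 0.0729. It was also not called without both neuron replicate 1 arrays (-0.32, adjusted p = 0.114), with no background filter (adjusted p = 0.0549) or among control arrays alone (-0.16, adjusted p = 0.670). Which transcripts the 2 Cacna1i probes detect was not tested.

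**Figure D2:**
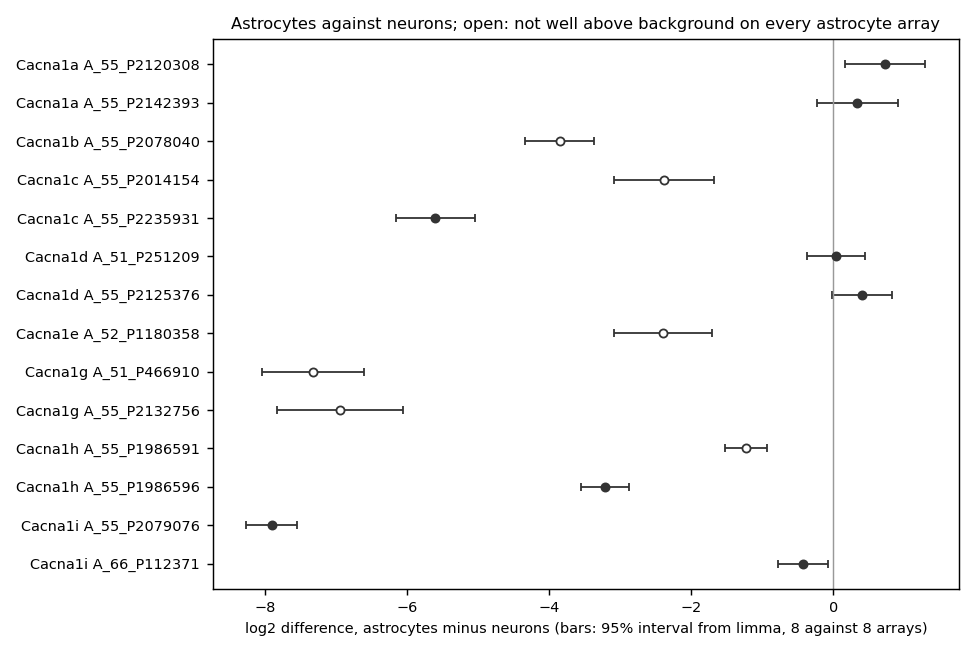
Difference between astrocytes and neurons for the 14 alpha subunit probes on a log2 scale, with 95% intervals from limma (8 against 8 arrays). Open points were not well above background on every astrocyte array. Values run from -7.91 for a Cacna1i probe to 0.73 for a Cacna1a probe, and the intervals of both Cacna1d probes and of 1 Cacna1a probe include 0.

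Auxiliary subunits set the trafficking and gating of the pore. Beta subunits bind the pore inside the cell, alpha-2-delta subunits bind it outside, and the gamma family includes proteins that also traffic AMPA-type glutamate receptors. Of 16 such genes, counted at 1 probe each, 13 were called lower in astrocytes, 2 higher and 1 was not called. Among all probes tested, 40.8% were called lower in astrocytes and 28.8% higher. The median difference was -2.21 for the 16 genes and -0.22 for all probes. Cacng2 at probe A_55_P1972172 and Cacng3, both of the AMPA receptor-linked gamma group, were above background on all 8 neuron arrays. Neither was above it on any astrocyte array, so both passed the filter through neurons alone. Their processed signals were at least 320.9-fold and at least 57.0-fold higher in neurons (fitted differences -8.67 ± 0.21 and -7.45 ± 0.28, limma, adjusted p = 1.75e-14 and 2.08e-12). A second Cacng2 probe, A_52_P539692, was above background on 1 of 8 neuron arrays and on no astrocyte array. Its mean level was -7.51 in neurons and -7.91 in astrocytes. All 4 alpha-2-delta genes were lower, from -0.81 ± 0.17 for Cacna2d4 (above background on 6 of 8 astrocyte arrays) to -4.69 ± 0.18 for Cacna2d2. Cacng4, another member of the gamma group, was lower by -4.21 ± 0.24 (limma, adjusted p = 2.35e-10).

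The beta subunits divided. Cacnb3 and Cacnb4 were lower in astrocytes, by -2.45 ± 0.16 and -1.88 ± 0.30, whereas Cacnb1 and Cacnb2 were higher, by 1.21 ± 0.22 and 0.95 ± 0.17 (limma, adjusted p at most 0.000154 for the 4 genes). Cacng1, known from the skeletal muscle channel, differed by 0.74 ± 0.44 and was not called, except with quantile scaling (0.84, adjusted p = 0.0362). Of the alpha subunit genes outside the 8, Cacna1s was lower by -1.61 ± 0.22 at its brighter probe. Its other probe, A_55_P2169923, averaged -5.22 in neurons and -5.61 in astrocytes, above background on 6 and 5 of 8 arrays. Cacna1f was above background too rarely to be tested. The leak channel Nalcn differed by -0.43 ± 0.22 and was not called (limma, adjusted p = 0.0931).

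**Figure D3:**
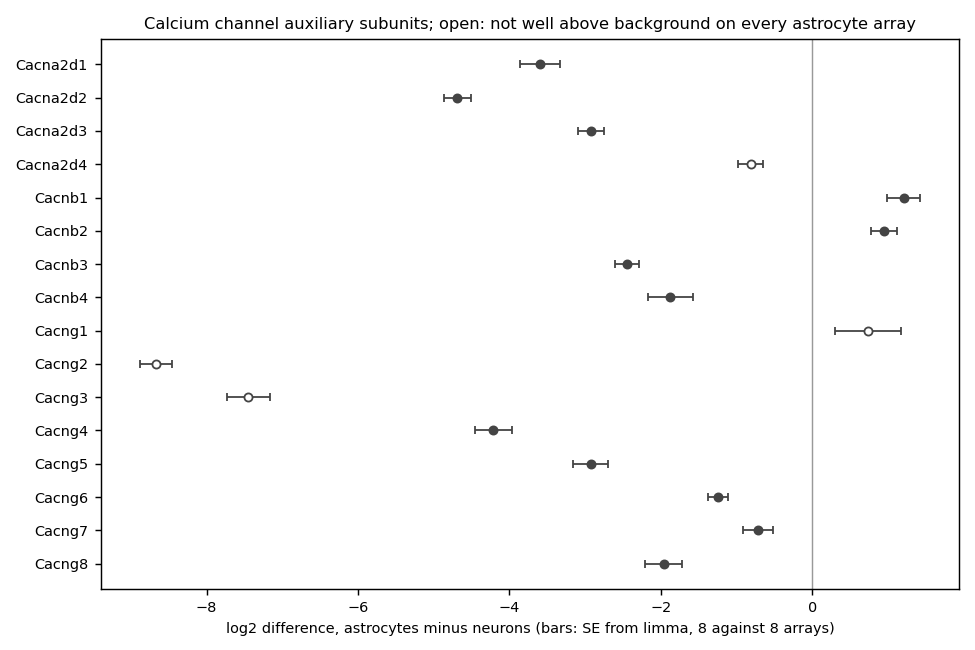
Difference between astrocytes and neurons for 16 auxiliary calcium channel subunits, at 1 probe each, on a log2 scale, with the SE from limma (8 against 8 arrays). Open points were not well above background on every astrocyte array. Cacng2 and Cacng3 lie farthest left at -8.67 and -7.45, and Cacnb1 and Cacnb2 lie to the right of 0 at 1.21 and 0.95.

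Genes that move calcium by other routes were called in both directions. Of 21 tested genes for calcium stores, store-operated entry and extrusion, 10 were called lower in astrocytes, 6 higher and 5 neither, with a median of -0.47. These shares of 47.6% and 28.6% lie near the 40.8% and 28.8% of all probes. The 4 genes with the smallest p-values of the list were all lower (limma, adjusted p at most 2.22e-09 for the 4 genes). The plasma membrane pump Atp2b3 was above background on no astrocyte array, and its processed signal was at least 212.8-fold higher in neurons. The others were the ryanodine receptor Ryr2 (-4.90 ± 0.28), the sodium-calcium exchanger Slc8a2 (-4.27 ± 0.25) and the pump Atp2b2 (-5.48 ± 0.37). Higher genes, of which 2 are named after their values were seen, included the store-operated channel Orai3 (1.78 ± 0.22) and the inositol trisphosphate receptor Itpr2 (1.51 ± 0.25), a calcium release channel known from astrocytes (limma, adjusted p = 3.14e-06 and 5.66e-05). Of 29 calcium-dependent kinase, phosphatase and transcription genes, 18 were lower (62.1%), 6 higher (20.7%) and 5 neither, with a median of -1.03. The smallest p-values belonged to the calmodulin-dependent kinases Camk2b (-5.69 ± 0.16), Camk1g (-6.48 ± 0.21) and Camk4 (-3.28 ± 0.19) and the calcineurin subunit Ppp3cb (-2.96 ± 0.13), all lower (limma, adjusted p at most 3.47e-10 for the 4 genes). The transcription factor Nfatc1, named after its value was seen, was higher by 2.24 ± 0.20 (limma, adjusted p = 5.12e-08).

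The design sets Klotho against control within each cell type. In neurons all 14 probes were tested and none was called, with differences between Klotho and control from -0.34 to 0.32 and the smallest unadjusted p at 0.101 (limma, smallest adjusted p = 0.999). Over all 34073 probes tested, 41 were called, 0.12%, all lower with Klotho, and with the replicate number as a block 25 were, again with none of the 14. Without the background filter the direction turned, with 7501 probes called higher and 260 lower. Among the 30008 probes above background on all neuron arrays 3 were called, all lower. Spots well above background made up 65.0% to 67.3% per control array and 57.9% to 62.0% per Klotho array. The part of this gap in the direction of the calls was not tested. The 2 groups overlapped at all 14 probes, whereas they did not overlap for 4.04% of all probes. The median difference was 0.01 for the 14 probes and -0.02 for all probes. With the replicate block 4 of the 14 probes had an unadjusted p under 0.05, or 28.6%, against 12.1% of all probes, with adjusted p of 0.411 to 0.412 (limma). They were Cacna1b and Cacna1i A_66_P112371, higher with Klotho in 4 of 4 same-numbered pairs, and Cacna1c A_55_P2235931 and Cacna1h A_55_P1986596, lower in 3 of 4.

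The smallest p belonged to the bright Cacna1c probe A_55_P2235931. Controls 1 to 4 read 3.57, 3.58, 3.47 and 3.43, and Klotho 1 to 4 read 3.59, 3.24, 3.15 and 3.12. Klotho arrays 2, 3 and 4 lay below all controls and Klotho 1 above them, and the log2 difference was -0.24 ± 0.13, with a 95% interval from -0.53 to 0.06. For Cacna1h probe A_55_P1986596 the controls read 3.12, 2.88, 2.88 and 3.14 and the Klotho arrays 3.15, 2.56, 2.57 and 2.65. The same arrays stood apart there, and the difference was -0.27 ± 0.16, with an interval from -0.63 to 0.09 (-0.41 without neuron Klotho 1). Cacna1i probe A_66_P112371 differed by 0.26 ± 0.17, with an interval from -0.12 to 0.65, and by 0.40 without neuron control 1 and 0.15 without neuron control 2. The widest interval, from -1.18 to 1.17, belonged to Cacna1g probe A_55_P2132756, and a 2-fold change in either direction lies within it. With the replicate number as a block this interval ran from -0.23 to 0.22. Without both replicate 1 arrays, a setting described below, it ran from -0.33 to 0.27. A 2-fold change lies outside both of these intervals.

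Replicate 1 stood apart in both neuron groups. Cacna1g at probe A_55_P2132756 read 2.20, 0.82, 0.42 and 0.43 in controls 1 to 4 and 2.27, 0.57, 0.51 and 0.51 in Klotho 1 to 4. Replicate 1 was the highest array by over 1 log2 unit in each group. Cacna1a at probe A_55_P2142393 read 3.05 in control 1 against 2.28 to 2.36 in the other 3, and 3.13 in Klotho 1 against 2.33 to 2.39. Of the 14 probes, 9 were above the other 3 arrays in both groups and 0 below, whereas 32.6% of all 34073 probes were above and 29.0% below. The 9 are both probes of Cacna1a, Cacna1g and Cacna1i and 1 probe each of Cacna1b, Cacna1d and Cacna1h.

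Marker genes moved on the same arrays. On the replicate 1 arrays the mean log2 level of the neuron markers was 5.06 to 5.10 against 4.64 to 4.75 on the other 6 neuron arrays. Astrocyte markers were at 1.00 to 1.30 against 1.49 to 1.78, oligodendrocyte lineage markers at 1.57 to 1.68 against 2.01 to 2.45, microglial markers at -2.75 to -2.35 against -1.91 to -0.97, and interneuron markers at 3.77 to 3.78 against 3.99 to 4.15. Their part in the levels of the alpha subunits was not tested. Without both replicate 1 arrays, a setting added after the values were seen, none of the 14 probes was called for Klotho. In that setting 6 of the 14 had an unadjusted p under 0.05, or 42.9%, against 21.3% of all probes, and 15 probes in all were called. The 6 were Cacna1c A_55_P2235931 (-0.32 ± 0.08), Cacna1h A_55_P1986596 (-0.37 ± 0.09), Cacna1g A_51_P466910 (-0.52 ± 0.13), Cacna1e (-0.56 ± 0.20), Cacna1b (0.39 ± 0.12) and Cacna1i A_66_P112371 (0.34 ± 0.13), with adjusted p from 0.136 to 0.201 (limma).

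In astrocytes 9 of the 14 probes could be tested, for Cacna1a, Cacna1c, Cacna1d, Cacna1h and Cacna1i. By scanner file none was called, and differences ran from -0.40 to 0.21 (limma, smallest unadjusted p = 0.135). The groups overlapped at all 9 probes, against 2.48% of all probes at which they did not. None of 32155 probes was called by limma (0%), while 1137 had an unadjusted p under 0.05. By value table none of the 9 was called either, and differences ran from -0.19 to 0.49 (limma, smallest unadjusted p = 0.0616). The groups again overlapped at all 9 probes, and did not at 1.63% of all probes. There 0 of 32238 probes were called by limma (0%), with 755 at an unadjusted p under 0.05. The bright Cacna1c probe, for instance, read -3.03, -3.08, -1.62 and -1.53 in control scanner files 1 to 4 and -2.82, -2.47, -1.74 and -1.38 in Klotho files 1 to 4. Files 1 and 2 of both groups were low and files 3 and 4 high, a split by row that is described further on. The interval of the Klotho difference by scanner file ran from -0.87 to 1.29, and from -0.18 to 0.61 with array row as a block.

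Cacna1h probe A_55_P1986591 differed in sign between the 2 assignments. By scanner file its controls read -5.26, -4.60, -5.03 and -4.52 and its Klotho arrays -5.37, -5.08, -5.54 and -5.05, of which -5.37 and -5.54 were not well above background. The difference was -0.40 ± 0.25 by scanner file, with a 95% interval from -0.96 to 0.15, and 0.49 ± 0.23 by value table, with an interval from -0.03 to 1.01. With normexp the values were 0.04 and 0.01. With array row as a block the 9 probes kept differences from -0.40 to 0.21 by scanner file and from -0.19 to 0.49 by value table. Again none was called, and the SE was 0.15 to 0.22 by scanner file and 0.16 to 0.23 by value table. In these blocked fits the interval of Cacna1h A_55_P1986591 ran from -0.92 to 0.11 by scanner file. By value table it ran from 0.02 to 0.96, with an unadjusted p of 0.0433 (limma, adjusted p = 0.774).

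The Klotho effect was not shown to differ between the cell types for any alpha subunit. The interaction term, by scanner file, called 0 of 14 probes and 29 of 36235 probes in all (0.08%). The 27 probes called higher are 0.0745% of those tested and the 2 called lower 0.00552%. Interaction differences ran from -1.31 for Cacna1c probe A_55_P2014154, which is below background on most astrocyte arrays, to 0.69 for Cacna1g probe A_51_P466910 (limma, smallest unadjusted p = 0.0677). Among the calcium lists, 0 of 16 auxiliary subunits, 0 of 21 store, entry and extrusion genes and 0 of 29 kinase, phosphatase and transcription genes were called for Klotho in neurons, and none in astrocytes under either assignment.

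**Figure D4:**
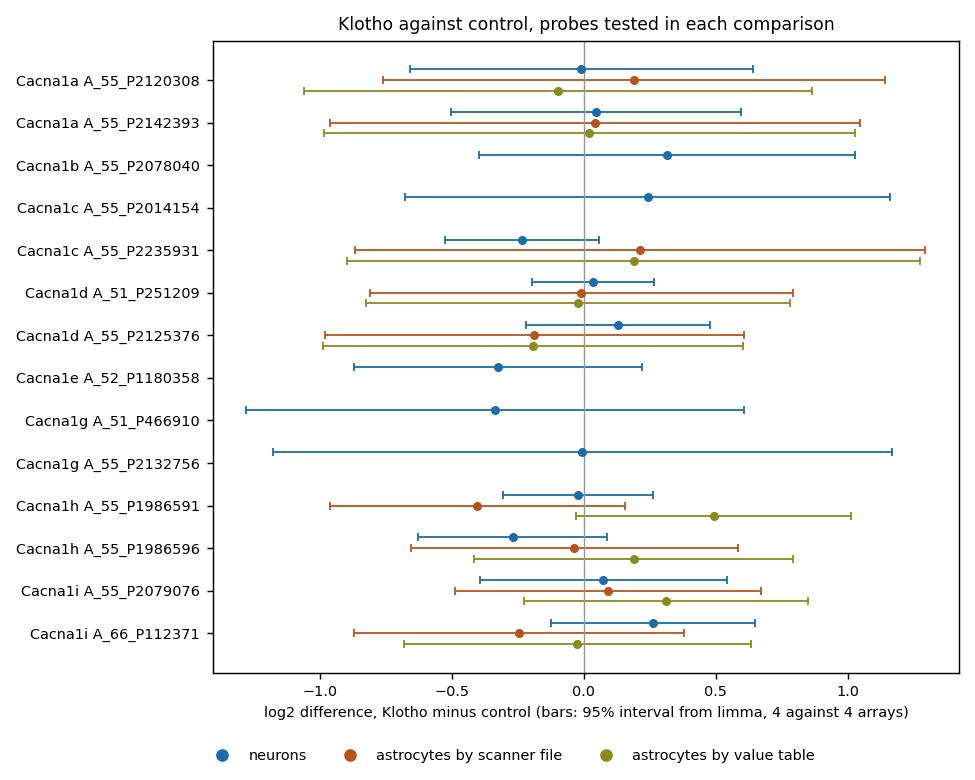
Difference between Klotho and control for each alpha subunit probe on a log2 scale, with 95% intervals from limma (4 against 4 arrays), in neurons and in astrocytes under both assignments of the arrays. Probes with 1 point were testable in neurons alone. All intervals of these fits without a block include 0, and the 2 astrocyte assignments of Cacna1h A_55_P1986591 lie on opposite sides of it, at -0.40 and 0.49.

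Astrocyte arrays of the 2 slide rows differed at 46.8% of all probes tested. Row is a technical position, and each row holds 2 control and 2 Klotho arrays under either assignment. Of the 14 probes 8 could be tested, 6 were called higher in row 2 and none lower. Over all 33036 probes, 23.4% were called higher and 23.4% lower (7725 and 7723 probes), and the median difference was 0.85 for the 8 probes and 0.01 for all probes. The rows did not overlap for 6 of the 8 probes, against 42.4% of all probes. Scaling on the array median moved the median of all probes to -0.43 and the split to 4119 higher and 12055 lower, and normexp gave 5001 higher and 7773 lower. The number of alpha subunit probes called higher was 3 with median scaling.

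Cacna1c showed the greatest difference between rows. Its probe A_55_P2235931 read -3.03, -3.08, -2.82 and -2.47 in row 1 and -1.62, -1.53, -1.74 and -1.38 in row 2, each time the 2 control scanner files before the 2 Klotho scanner files. The rows were separated by more than the spread within either, and the difference was 1.28 ± 0.18, or 2.43-fold (limma, adjusted p = 0.00357). Cacna1a probe A_55_P2142393 read 2.02, 2.14, 2.40 and 2.63 in row 1 and 3.59, 3.61, 3.40 and 3.11 in row 2. The difference was 1.13 ± 0.20 (limma, adjusted p = 0.00362), and the other Cacna1a probe gave 1.02 ± 0.22 (limma, adjusted p = 0.00647). These 3 probes kept their call with median scaling, at 0.84, 0.69 and 0.58, which lay 1.27, 1.12 and 1.00 above the median of all probes in that scaling.

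Cacna1d, called at neither probe between the cell types, was higher in row 2 at both probes. Probe A_51_P251209 read -0.52, -0.52, -0.36 and -0.41 in row 1 and 0.41, 0.62, 0.49 and 0.24 in row 2. All row 1 arrays lay below the neuron range of -0.14 to 0.12 and all row 2 arrays above it. The difference was 0.89 ± 0.15 (limma, adjusted p = 0.00358), and 0.80 ± 0.20 for probe A_55_P2125376 (limma, adjusted p = 0.0110). Both calls were lost with median scaling (0.45, adjusted p = 0.0827, and 0.36, adjusted p = 0.176).

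Cacna1h probe A_55_P1986596 was higher in row 2 by 0.55 ± 0.16 (limma, adjusted p = 0.0218). That call was lost with median scaling (0.11, adjusted p = 0.678), without a background filter (adjusted p = 0.0639) and without astrocyte control 1 (0.56, adjusted p = 0.0577), control 2 (0.54, adjusted p = 0.0594) or control 4 (0.45, adjusted p = 0.0582). The 2 Cacna1i probes differed by 0.25 ± 0.21 and 0.42 ± 0.22 and were not called, and the first was below 0 with normexp, median and quantile scaling. Probes of Cacna1b, Cacna1e and Cacna1g, the dim probe of Cacna1c and that of Cacna1h were not well above background on all arrays of either row.

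The row difference was measured within each slide. On slide 2 the means of the 2 arrays per row differed by 1.48 for Cacna1c A_55_P2235931, by 1.53 and 1.46 for the Cacna1a probes A_55_P2142393 and A_55_P2120308, and by 1.04 and 1.15 for the Cacna1d probes A_51_P251209 and A_55_P2125376. On slide 3 the same differences were 1.09, 0.74, 0.57, 0.75 and 0.46. All were positive on both slides, and all 5 were smaller on slide 3, a contrast that was not tested. For Cacna1i A_55_P2079076 the 2 slides gave 0.60 and -0.10.

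Marker lists were set beside the row difference. Of all probes tested, 23.4% were called higher in row 2 and 23.4% lower. The astrocyte marker mean was 3.72 to 4.07 in row 1 and 3.20 to 3.83 in row 2, with 3 of 10 astrocyte markers (30.0%) called lower in row 2. The neuron marker mean was -1.95 to -1.44 in row 1 and -1.93 to -1.71 in row 2, and Nefl and Slc17a7 were above background in neither. Of 8 neuron markers tested, 2 were called higher in row 2 and 3 lower. Fibroblast, mural and endothelial markers had the largest median shift of the marker lists, -0.85, with 4 of 7 called lower in row 2 and 2 higher. Microglial markers stood at 2.89 to 3.56 and 3.17 to 3.76, and oligodendrocyte lineage markers at -0.58 to 0.43 and -0.20 to 0.84. The part of these markers, or of array position itself, in the row difference was not tested.

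**Figure D5:**
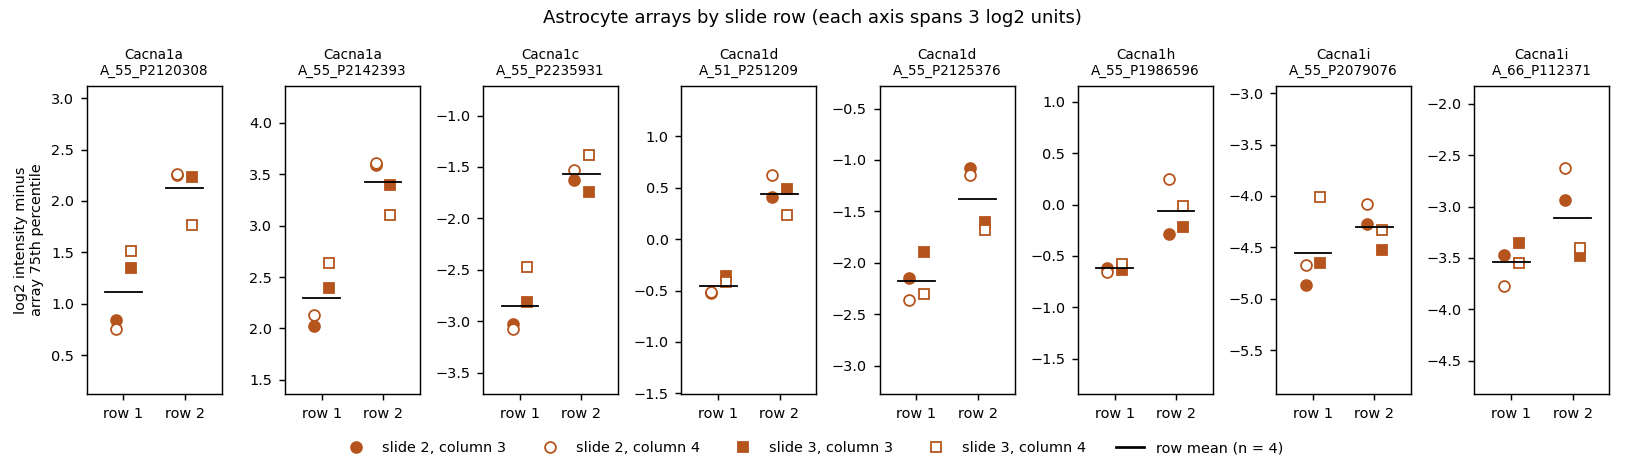
Level of the 8 tested alpha subunit probes on the 8 astrocyte arrays, as log2 intensity minus the array's 75th percentile, by slide row. Circles are slide 2 and squares slide 3, filled points slide column 3 and open points column 4, and black lines are row means (n = 4). For both probes of Cacna1a and Cacna1d and 1 each of Cacna1c and Cacna1h the rows do not overlap, and the difference of Cacna1d and Cacna1h was not called when arrays were scaled on their medians.

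Other calcium genes were also compared by row, where 23.4% of all probes were called in each direction. Of 14 tested auxiliary subunits 5 were called higher in row 2 (35.7%), 1 lower (7.14%) and 8 neither, with a median of 0.42, but 2 higher and 3 lower with median scaling, where the median was -0.02. The beta subunit Cacnb4 was higher by 1.42 ± 0.25 (limma, adjusted p = 0.00368) and was called under each of the 4 scalings. Next came Cacnb1 (0.76 ± 0.22), Cacng1 (1.81 ± 0.53) and Cacna2d2 (0.59 ± 0.19), all higher (limma, adjusted p from 0.0211 to 0.0283), and each of the 3 lost its call under at least 1 other scaling. Of 19 store, entry and extrusion genes 8 were higher (42.1%) and 1 lower (5.26%), but 2 higher and 4 lower with median scaling. The smallest p-values there belonged to the inositol trisphosphate receptors Itpr2 (0.84 ± 0.14) and Itpr1 (0.80 ± 0.15), the sodium-calcium exchanger Slc8a3 (2.07 ± 0.42) and the store pump Atp2a2 (0.96 ± 0.21), all higher (limma, adjusted p at most 0.00625 for the 4 genes). Of these, Slc8a3 was called in each of the 4 scalings, and the other 3 lost their call with median scaling (adjusted p from 0.0955 to 0.135). Of 29 kinase, phosphatase and transcription genes 3 were higher (10.3%) and 9 lower (31.0%), but 2 higher and 13 lower with median scaling, and 7 higher and 6 lower with quantile scaling. The calcineurin subunit Ppp3r1 and the calmodulin genes Calm2 and Calm3 were lower, by -1.45 ± 0.22, -1.52 ± 0.23 and -1.31 ± 0.24, in each of the 4 scalings (limma, adjusted p at most 0.00394 for the 3 genes).

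The genes whose profile was most like that of each alpha subunit were named by Pearson correlation over the 16 arrays, among 16224 genes at 1 probe each. The 16 points are 2 cell types measured on separate slides, a gap present in the profiles of Cacna1b, Cacna1c, Cacna1g, Cacna1h and Cacna1i. The Cacna1a and Cacna1d probes searched were not called between the cell types (0.34 and 0.04). They differed between astrocyte rows by 1.13 and 0.89. What sets these correlations was not tested. Cacna1i was nearest to Clstn3 and Nefl (r = 0.999 for both), Cacna1c to Parp6 and Galnt14 (r = 0.997 for both), Cacna1g to Spock2 and Abcc8 (r = 0.995 and 0.994), Cacna1h to Tmem191c and Ptpru (r = 0.997 and 0.996) and Cacna1b to Lamp5 and Zfp804a (r = 0.996 for both). Cacna1a was nearest to Adcy6 and Rps6ka2 (r = 0.980 and 0.958), and Cacna1d to Stox2 and Col11a2 (r = 0.962 and 0.942). Cacna1e was below background on too many arrays to be searched.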

How the data were processed

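Members and gene lists were chosen with earlier results of these data known. The deposited scanner output holds linear intensity from Agilent Feature Extraction for probes placed on mouse build mm9. Per the file headers, its processed intensity had background subtracted and spatial trends removed inside each array, and no step scaled arrays to each other. The deposited value table holds a score with no stated unit; each of its columns equals the standardised log2 intensity of 1 array to within 0.005, with the next best array at 1.67 or more. Here log2 processed intensity was centred on each array's 75th percentile after dropping outlier spots, spots of a probe were averaged over 55681 probes, and 28331 probes (50.9%) received a symbol through RefSeq. A probe counts as well above background where 0.5 or more of its spots carry that flag; such spots made up 57.5% to 67.3% per array, and none was saturated. Both the number of arrays and, for dim probes, the background limit precision. Tests used limma 3.58.1 in R 4.3.3 (lmFit, eBayes) over all probes tested, on probes carrying the flag throughout 1 or more of the groups compared, with Benjamini-Hochberg adjustment at 0.05, and the script was tested on simulated data. The gene lists' representative is the probe with the highest mean level; all member probes are given, and each list's genes are the 4 with the smallest p in a comparison, plus those needed to show a family, and genes outside this rule are marked as named after their values were seen; 1 gene that this rule would name is not reported here.

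Same-numbered arrays gave correlations of 0.160 to 0.766 in neurons, where the number equals the slide column and differently numbered arrays gave -0.652 to 0.423, and 0.174 to 0.725 in astrocytes by scanner file, where numbers 1 and 2 lie in row 1 and 3 and 4 in row 2. Neuron arrays 2, 3 and 4 also correlated above 0 across numbers. Alternatives covered scaling, background correction, filters, probe choice, the value table, blocks and leaving out each array. The planned normexp correction on mean signals was not run, mean signals being not analysed here, and normexp on spot medians was chosen after seeing the data, as were the settings without both neuron replicate 1 arrays. There were 0 unused columns of per-sample values.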

Additional observations from a re-analysis of the deposited data

Results flagged for a closer look

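In 56 groups of 4 arrays (14 probes in 4 groups), 9 arrays lay far enough from the other 3 to pass Dixon's 95% limit, where chance gives about 1 in 20 groups, and 7 of the 9 were replicate 1 of a neuron group. Cacna1a stood out in neuron control 1, at 1.52 for probe A_55_P2120308 (others 0.63 to 0.73) and 3.05 for probe A_55_P2142393 (others 2.28 to 2.36), and in neuron Klotho 1 at 3.13 for the latter probe (others 2.33 to 2.39). Neuron Klotho 1 also stood above the other 3 Klotho arrays for Cacna1b, at -3.42 (others -4.29 to -4.15), for Cacna1g, at 2.52 for probe A_51_P466910 (others 0.79 to 0.91) and 2.27 for probe A_55_P2132756 (others 0.51 to 0.57), and for Cacna1h probe A_55_P1986596, at 3.15 (others 2.56 to 2.65). Cacna1d probe A_51_P251209 was at 0.022 in neuron control 4, with the others between -0.099 and -0.092. Cacna1g probe A_51_P466910 was lowest in astrocyte control 1, at -7.13 (others -5.80 to -5.57), where it was not well above background.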

How the results depend on the processing

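Within each comparison the count of called alpha subunit probes stayed within 1.5 times its value except as follows. In astrocytes against neurons, the count called higher (1) became 2 with median scaling, quantile scaling, the deposited value table or the array row as a block, 0 with 1 probe per gene symbol or control arrays only, and 0 to 2 with arrays left out in turn; the count called lower (10) became 4 when only probes above background on all arrays compared were kept and 6 with 1 probe per symbol, both of which test fewer probes. For the row comparison the count called higher (6) became 3 with median scaling. Signs turned for Cacna1d A_51_P251209 between the cell types when arrays were left out (-0.063 to 0.13), for Cacna1h A_55_P1986591 under Klotho in astrocytes by scanner file with normexp (0.036), and for the uncalled Cacna1i probes between rows: A_55_P2079076 with normexp (-0.10), median (-0.19) and quantile scaling (-0.21), and A_66_P112371 with median scaling (-0.014); the cause was not tested. Over all probes, the 41 calls for Klotho in neurons became 6 with normexp, 7761 with no background filter (7501 of them higher, against none of the 41), 3 when above background on all arrays, 69 with the value table, 15 without both replicate 1 arrays, and 19 to 60 with arrays left out in turn, with 19 without neuron Klotho 1, 25 without Klotho 3 and 23 without control 3 or control 4. The 29 interaction calls became 11 with normexp, 0 when above background on all arrays, and 20 to 176, the last without astrocyte Klotho 3. For Klotho in astrocytes by scanner file, 1 probe was called without astrocyte control 3 and 18 without Klotho 3. The replicate block left 25 calls over all probes in neurons and 0 of 14 alpha subunit probes, and changed no other call in the 14 probes. By value table the same-numbered arrays did not deviate together (correlations -0.759 to 0.657), and with the replicate block again 0 of 9 alpha subunit probes were called. Dim probes limit the astrocyte side: Cacna1b and Cacna1e have only bounds there, and both Cacna1g probes and 1 probe each of Cacna1c and Cacna1h were above background on some arrays.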
